A study of Mus musculus with 203 samples.

Results

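The MHC class II antigen presentation genes described here are 10 members taken by name from the 43346 gene identifiers of the deposited count table: H2-Aa, H2-Ab1, H2-Eb1, H2-DMa, H2-DMb1, H2-Oa, H2-Ob, Cd74, Ciita and Cd86. All 10 were in the table and passed the filter on low counts. They were followed through RNA-seq libraries of airway and parenchyma in 20 groups, from female Balb/C mice aged 18 to 20 weeks whose lungs were divided by blunt dissection. Mice received house dust mite extract (HDM), an aeroallergen mixture used as a model of asthma, or PBS through the nose on 5 days per week for 3 weeks, giving 4 groups of week 3 (PBS and HDM in each tissue). The 16 groups of week 11 crossed HDM or PBS, continued 3 times per week from week 4 to 11, with cigarette smoke (CS; 2 exposures per day on 5 days per week for 8 weeks) or normal air (AIR), with or without the glucocorticoid dexamethasone (DEX) in week 11, in each tissue. Each group had 10 libraries, except PBS airway with 11 and PBS parenchyma with 12 at 3 weeks. The dose of DEX, and whether airway and parenchyma libraries came from the same animal, are not given in the labels, so libraries were treated as independent. All libraries but 1 fall into pairs of neighbouring numbers, an airway and a parenchyma library of the same week and exposure, and a fit with these neighbours as a block is given as an alternative. HDM with smoke models an overlap of asthma and chronic obstructive pulmonary disease.

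MHC class II molecules are pairs of an α and a β chain that carry peptides from engulfed proteins to the surface of dendritic cells, B cells and macrophages, where CD4+ T cells read them. The invariant chain (Cd74) guards the groove of newly made molecules, H2-DM loads peptides in the endosome, and H2-DO, which is made mostly in B cells, restrains H2-DM. The transactivator CIITA, recruited to a conserved X and Y box promoter, switches the class II loci on, and the surface protein CD86 gives T cells the second, costimulatory signal. Mice of the Balb/C strain carry another class II haplotype than the reference genome, so reads of these polymorphic genes were aligned to a different allele in every group, and its part in the levels was not tested.

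On GRCm38, with GENCODE M21 gene boundaries, 7 members lie in the class II region of chromosome 17: H2-Oa at chr17:34092340-34095234, H2-DMa at chr17:34119541-34139101, H2-DMb1 at chr17:34153072-34160230, H2-Ob at chr17:34238903-34254414, H2-Ab1 at chr17:34257689-34269419, H2-Aa at chr17:34282744-34287823 on the minus strand and H2-Eb1 at chr17:34305867-34316674. Ciita lies at chr16:10480059-10528418 and Cd86 at chr16:36603869-36666081 on the minus strand. All members are protein coding. RefSeq promoter sequences (GRCm38.p6, 250 bases before to 50 after the start site) matched 6 members with 7 promoters, and H2-Ab1, Cd74, Ciita and Cd86 had no entry.

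The promoters of an α chain, a β chain, an H2-DM chain and both H2-DO chains are shown as examples of the class II loci. Whether these sequences bear on the levels was not tested. Each line gives the 150 bases right before the RefSeq start site, 5′ to 3′ on the strand of the gene. Capitals mark the Y box core (ATTGG, searched on both strands) and an X1 box-like match (GNNAC followed directly by NGATG, both strands). The windows are chr17:34287824-34287973 (minus strand) for H2-Aa, chr17:34305717-34305866 for H2-Eb1, chr17:34153041-34153190 for H2-DMb1, chr17:34092229-34092378 for H2-Oa and chr17:34238755-34238904 for H2-Ob.
H2-Aa: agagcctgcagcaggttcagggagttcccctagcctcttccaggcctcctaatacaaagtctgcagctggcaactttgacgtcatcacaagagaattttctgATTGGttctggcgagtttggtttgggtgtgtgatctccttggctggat
H2-Eb1: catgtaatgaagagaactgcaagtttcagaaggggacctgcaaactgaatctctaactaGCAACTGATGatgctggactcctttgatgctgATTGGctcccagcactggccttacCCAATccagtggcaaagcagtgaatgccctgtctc
H2-DMb1: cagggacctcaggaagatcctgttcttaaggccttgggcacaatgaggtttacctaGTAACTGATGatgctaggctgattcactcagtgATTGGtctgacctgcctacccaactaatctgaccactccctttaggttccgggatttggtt
H2-Oa: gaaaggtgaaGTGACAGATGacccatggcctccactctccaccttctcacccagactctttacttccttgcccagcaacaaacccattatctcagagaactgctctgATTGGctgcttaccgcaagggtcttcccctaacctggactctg
H2-Ob: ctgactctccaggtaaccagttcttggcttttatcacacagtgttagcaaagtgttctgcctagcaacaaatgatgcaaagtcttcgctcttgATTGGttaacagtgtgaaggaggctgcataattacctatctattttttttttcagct

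The Y box core was found in 6 of the 7 member promoters, against 37.4% of all 32851 promoters of the same 300 bases. The X1 box-like match was found in 3, those of H2-Oa, H2-DMb1 and H2-Eb1, against 2.97% of all promoters, and 1.21% held both motifs. The first base of the Y box core stood 48 bases before the start site in H2-Aa, 59 in H2-Eb1, 61 in H2-DMb1, 43 in H2-Oa and 57 in H2-Ob. The member promoter without the core was a promoter of H2-DMa, which is not shown. In the other H2-DMa promoter, also not shown, the core lay further from the start site than the 150 bases given above. Between the X1 match and the Y box core lay 22 bases in H2-Eb1 and 23 in H2-DMb1, but 87 in H2-Oa. In H2-Eb1 a further, reversed Y box core began 35 bases before the start site. The X1 pattern searched is 1 fixed form, and other forms of the X box were not searched. The letters gcaac, which fit GNNAC, stand unmarked before the Y box core in H2-Aa, H2-Oa and H2-Ob. A missing match, or the spacing in H2-Oa, therefore does not show where an X box lies. These matches describe letters only.

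Libraries held 13003154 to 40240733 estimated counts (median 28090684), which set the precision of the low genes. In the control groups, 8 of 8 airway markers (Scgb1a1, Foxj1, Acan and others) were higher in airway and 7 of 7 parenchyma markers (Ager, Sftpc and others) were higher in parenchyma at both times, so the tissue labels matched their markers as groups. Across all genes, 27 libraries were most like a group other than their own, and 10 of these like a group of the other tissue. Libraries X11 (HDM.AIR.DEX airway) and X12 (HDM.AIR.DEX parenchyma) stood 1.39 and 1.33 log2 units above their group medians over the members and were most like HDM.AIR of their own tissue. Results that rest on these libraries are given below with and without them. The 28 libraries numbered X177 to X204, 1 to 3 per group, also stood apart: the log2 ratio of H2-Aa to H2-Ab1 in CPM was 0.74 to 1.45 (median 1.24) there, against 0.19 to 1.16 (median 0.69) in the others.

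Levels are given as CPM, counts scaled to a common library size with TMM factors, and levels of different genes are compared only per kilobase of merged exon. Per length, Cd74 (chr18:60803848-60812652) was the most abundant member, with group medians from 200 to 2430 CPM per kb. The classical chains followed, with group medians of 36.7 to 652 for H2-Eb1, 30.8 to 464 for H2-Aa and 25.8 to 410 for H2-Ab1. The peptide loading chains were lower, at 7.20 to 86.2 for H2-DMb1 and 5.23 to 54 for H2-DMa. The lowest were the H2-DO chains (0.395 to 18.6 for H2-Oa and 0.190 to 13.5 for H2-Ob), Cd86 (1.11 to 12.5) and Ciita (0.953 to 10.3). The ranges are of group medians, and gaps between genes within 1 group were not tested.

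**Figure D1:**
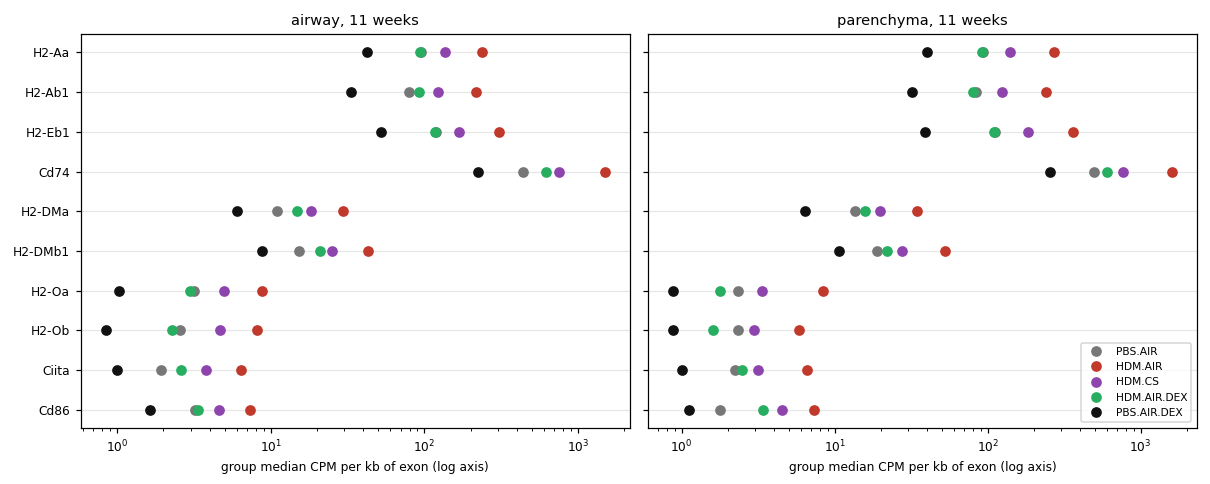
Median CPM per kilobase of merged exon (log axis) of the 10 members at 11 weeks in PBS.AIR, HDM.AIR, HDM.CS, HDM.AIR.DEX and PBS.AIR.DEX mice, in each tissue. Cd74 lies above the classical chains in each of these groups, and the H2-DO chains, Cd86 and Ciita lie lowest.

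The highest group median was in HDM parenchyma at 3 weeks for 9 members, and in HDM airway at 3 weeks for H2-Ob. In the order of the 20 groups for H2-Aa, the HDM groups without smoke or DEX came first, at medians of 1760 CPM in 3 week HDM parenchyma, 1343 in 3 week HDM airway, 1033 in 11 week HDM.AIR parenchyma and 900 in 11 week HDM.AIR airway. HDM.CS parenchyma came next with 534 CPM, and PBS.CS.DEX airway was last with 116.9. Down this order the ranges of neighbouring groups overlapped at each step but the one below HDM.AIR airway. The same step was the only one without overlap for H2-Eb1, H2-DMb1, Cd74 and Ciita, and no step lacked overlap for the other 5 members.

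**Figure D2:**
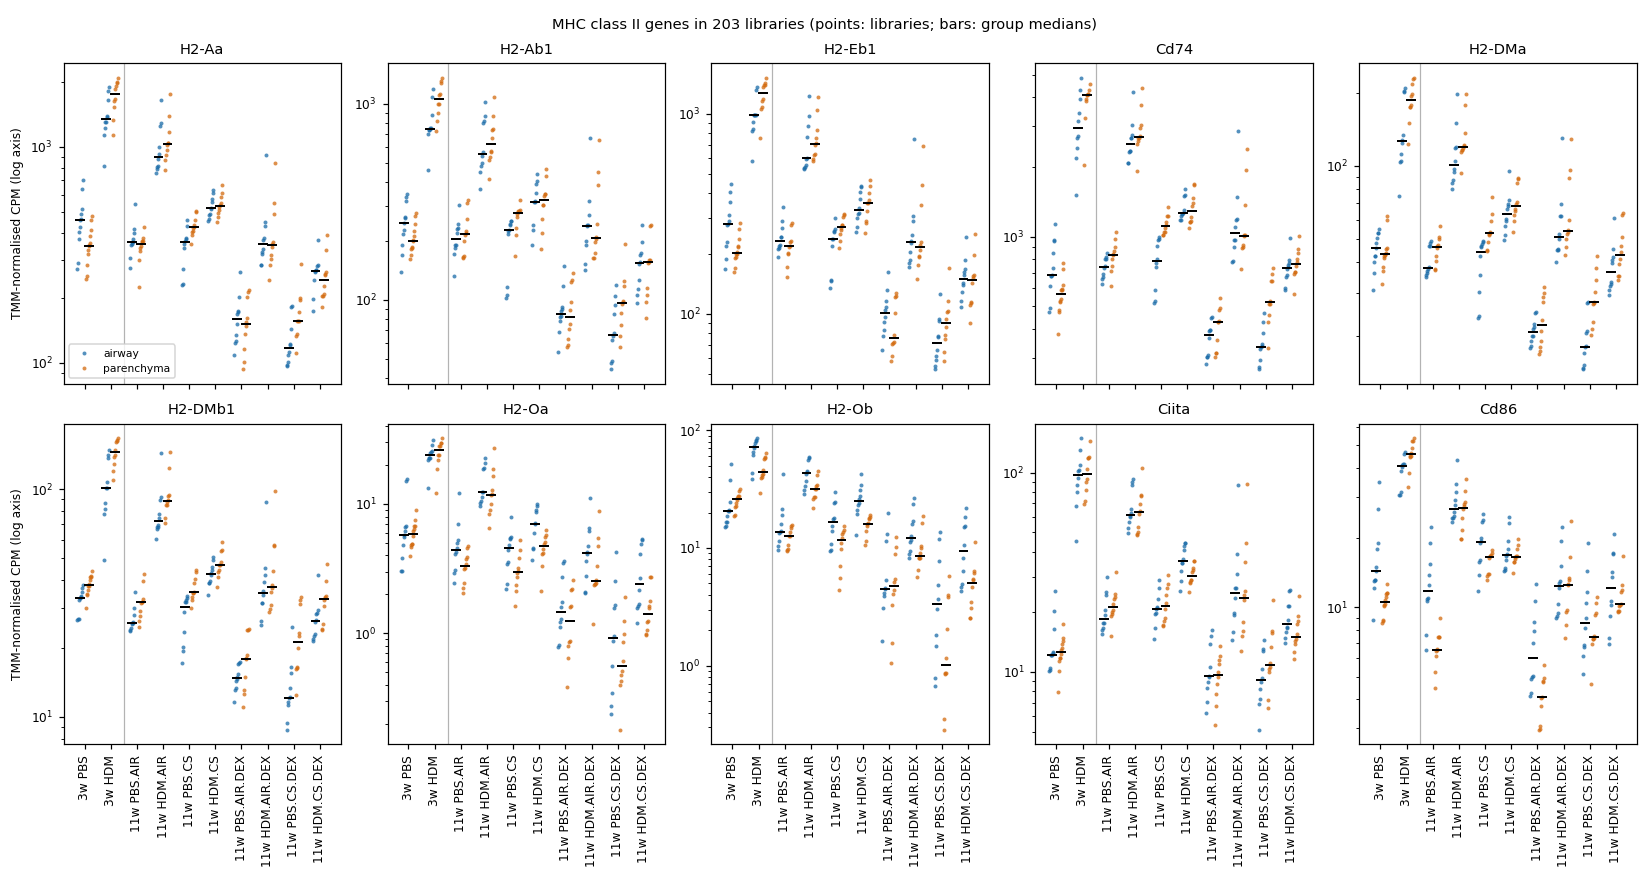
Level of each member (CPM, log axis) in every library of the 20 groups, 1 panel per gene, with a line at the group median. HDM groups without smoke or DEX stand highest, and X11 and X12 are the high points of the HDM.AIR.DEX groups except for H2-Ob.

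The first comparison asked what 3 weeks of HDM did in each tissue. All 10 members were higher in HDM than in PBS airway by the limma-voom test, with a median log2FC of 1.64 (1.23 to 2.73) against -0.07 over all genes tested. All 10 were called up (adjusted p under 0.05 and log2FC of at least 1), where 12.1% of the 17381 genes tested were. In parenchyma 9 were called up, against 14.5% of genes, with a median of 2.14 against -0.13. Ciita, the transactivator, gained most in both tissues. In airway it ran from 10.1 to 25.5 CPM (median 12.2) with PBS and from 45.5 to 148.9 (median 97.3) with HDM. In parenchyma it ran from 7.86 to 17.4 CPM (median 12.5) with PBS and from 69.5 to 144.7 (median 98.4) with HDM. The groups did not overlap in either tissue, and the log2FC of Ciita was 2.73 ± 0.16 (SE; adjusted p = 4.1e-18) and 2.93 ± 0.17 (adjusted p = 1.0e-18).

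Among the classical chains, H2-Eb1 moved most. Its level was 167.96 to 444 CPM (median 280) in PBS airway and 581 to 1354 (median 984) in HDM airway. In parenchyma it was 161.8 to 284 CPM (median 201.3) with PBS and 755 to 1516 (median 1268) with HDM, so every HDM library exceeded every PBS library. The log2FC was 1.75 ± 0.15 in airway and 2.47 ± 0.14 in parenchyma (adjusted p = 7.1e-14 and 4.0e-19). H2-Aa gained 1.59 ± 0.15 and 2.22 ± 0.15, and H2-Ab1 gained 1.68 ± 0.15 and 2.27 ± 0.14, again without overlap. Cd74, the invariant chain, rose from a median of 683 to 2943 CPM in airway (474 to 1136 with PBS, 1512 to 4856 with HDM) and from 564 to 4080 in parenchyma (380 to 771 with PBS, 2031 to 4539 with HDM). No PBS library reached an HDM library. Its log2FC was 2.00 ± 0.16 and 2.69 ± 0.16, a 4.00-fold and a 6.44-fold rise (adjusted p = 2.3e-14 and 5.5e-19).

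The H2-DM chains rose by similar amounts, H2-DMa by 1.53 ± 0.14 and 2.00 ± 0.14 and H2-DMb1 by 1.58 ± 0.12 and 1.86 ± 0.12 in airway and parenchyma. H2-DMb1 has a near-identical copy, H2-DMb2, and the division of reads between them is uncertain. H2-Oa rose by 1.92 ± 0.20 and 1.98 ± 0.22. H2-Ob, the β chain of H2-DO, was called in airway alone. Its level went from 15.0 to 51.3 CPM (median 20.4) in PBS airway to 38.6 to 85.7 (median 72.4) in HDM airway. In parenchyma it went from 18.8 to 31.6 CPM (median 26) to 29.3 to 63.7 (median 44.1). The HDM and PBS ranges overlapped in both tissues, and the log2FC was 1.57 ± 0.17 (adjusted p = 5.4e-11) in airway but 0.83 ± 0.17 (adjusted p = 2.9e-05) in parenchyma, below the limit for a call. Cd86 rose from a median of 14.4 to 40.8 CPM in airway (8.82 to 34.6 with PBS, 30.4 to 46.8 with HDM) and from 10.6 to 45.7 in parenchyma (8.57 to 12.5 with PBS, 33.1 to 53.8 with HDM). The groups overlapped in airway and not in parenchyma, with log2FC of 1.23 ± 0.13 and 2.06 ± 0.15. HDM exceeded PBS in every library for 7 members in airway and 9 in parenchyma, where 11.0% and 19.2% of all genes did.

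The HDM effect was tested between tissues as an interaction. None of the 10 members was called by limma-voom, edgeR or DESeq2 at a log2 difference of 1, where 0.547% of genes were called for a larger and 1.67% for a smaller effect in airway, but 6 passed at an adjusted p under 0.05 and 7 at an unadjusted p under 0.05. The effect was smaller in airway for Cd86 (log2 difference -0.83 ± 0.20, adjusted p = 0.0045), H2-Eb1 (-0.72 ± 0.21, 0.013), Cd74 (-0.69 ± 0.23, 0.030), H2-Aa (-0.63 ± 0.21, 0.032) and H2-Ab1 (-0.59 ± 0.20, 0.039). For 6.44% of all genes it was smaller at this threshold. It was larger in airway for H2-Ob (0.74 ± 0.24, adjusted p = 0.027), where 10.8% of genes had a larger effect, and it did not pass under 5 of the 12 alternatives tried, edgeR (0.054) and DESeq2 (0.077) among them. H2-Ab1 did not pass when all libraries were fitted together (adjusted p = 0.14). Without the 10 libraries most like the other tissue, H2-DMa (-0.76, adjusted p = 0.0017) and H2-DMb1 (-0.54, 0.0064) passed by limma-voom as smaller in airway. Their values were the same without the 27 libraries most like another group. H2-DMa also passed with a filter at 10 CPM (-0.56, adjusted p = 0.033). In the PBS controls of week 3, Cd86 (log2 difference 0.64 ± 0.16), H2-Eb1 (0.42 ± 0.13), Cd74 (0.39 ± 0.14) and H2-Aa (0.37 ± 0.13) were already higher in airway than in parenchyma, where 24.3% of genes were. The PBS libraries enter both comparisons.

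At 11 weeks the members were again higher with HDM. All 10 were called up in airway (median log2FC 1.56, 1.26 to 1.85, against 0.00 over all genes) and all 10 in parenchyma (median 1.67, 1.43 to 2.04, against 0.05), where 10.6% and 13.0% of the 18250 genes tested were called up. Cd74 ran from 626 to 854 CPM (median 739) in PBS.AIR airway and from 2080 to 4219 (median 2502) in HDM.AIR airway. In parenchyma it ran from 610 to 1046 CPM (median 836) and from 1926 to 4396 (median 2687). These ranges were far apart, and the log2FC was 1.85 ± 0.15 and 1.84 ± 0.15 (adjusted p = 3.8e-23 and 6.0e-23). H2-Aa gained 1.44 ± 0.17 in airway and 1.70 ± 0.17 in parenchyma, H2-Eb1 1.54 ± 0.20 and 1.85 ± 0.20, and H2-Ab1 1.60 ± 0.23 and 1.63 ± 0.23. H2-DMa gained 1.45 ± 0.15 and 1.57 ± 0.15, and H2-DMb1 1.58 ± 0.15 and 1.63 ± 0.15.

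H2-Oa went from 2.46 to 12.2 CPM (median 4.42) in PBS.AIR airway to 9.64 to 22.6 (median 12.3) in HDM.AIR airway, an overlap, with a log2FC of 1.65 ± 0.23. In parenchyma it went from 2.03 to 4.71 CPM (median 3.30) to 6.56 to 27 (median 11.8) without overlap, with 1.98 ± 0.26. H2-Ob gained 1.47 ± 0.23 in airway and 1.43 ± 0.25 in parenchyma. Cd86, the costimulatory ligand, stood at 4.45 to 9.01 CPM (median 6.55) in PBS.AIR parenchyma and 19.7 to 35.8 (median 26.9) in HDM.AIR parenchyma. In airway it stood at 6.51 to 22.2 CPM (median 11.7) and 23.4 to 43.4 (median 26.7). Neither tissue overlapped, and the log2FC was 2.04 ± 0.18 in parenchyma and 1.26 ± 0.15 in airway. Cd86 was the single member whose HDM effect at 11 weeks differed by tissue (log2 difference -0.78 ± 0.24, airway less parenchyma, adjusted p = 0.0083), while 14.9% of genes had a smaller effect in airway at this threshold. It was also the single member higher in airway among PBS.AIR controls (0.91 ± 0.19, adjusted p = 2.5e-05), where 26.3% of genes were. Every HDM.AIR library lay above every PBS.AIR library for 8 members in airway and 10 in parenchyma, where 10.4% and 11.6% of all genes did.

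The HDM effect at 11 weeks was set against that at 3 weeks in 1 fit of all libraries. In airway only Ciita differed by limma-voom, with an effect 1.02 ± 0.25 log2 units smaller at 11 weeks (log2 difference -1.02, adjusted p = 9.9e-04), where 13.9% of genes had a smaller effect and 3.03% were called. Without the 10 libraries most like the other tissue, the 27 most like another group, or X177 to X204, the difference was -0.88, -0.88 and -0.87 and still passed (adjusted p = 0.0079, 0.0015 and 0.015), but lay under the limit for a call. In parenchyma 6 members had a smaller effect at 11 weeks, against 20.9% of all genes: Ciita (-1.43 ± 0.26, adjusted p = 2.4e-06), Cd74 (-0.97 ± 0.21, 6.2e-05), H2-Ab1 (-0.77 ± 0.29, 0.025), H2-Eb1 (-0.74 ± 0.26, 0.015), H2-Aa (-0.65 ± 0.23, 0.016) and H2-DMa (-0.56 ± 0.21, 0.022). Of these Ciita alone was called, where 4.06% of genes were. Ciita stood at medians of 61.3 and 63.2 CPM in HDM.AIR airway and parenchyma and 18.4 and 21.2 in PBS.AIR. Each week had its own mice and controls, so duration of HDM and other differences between the weeks cannot be told apart.

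**Figure D3:**
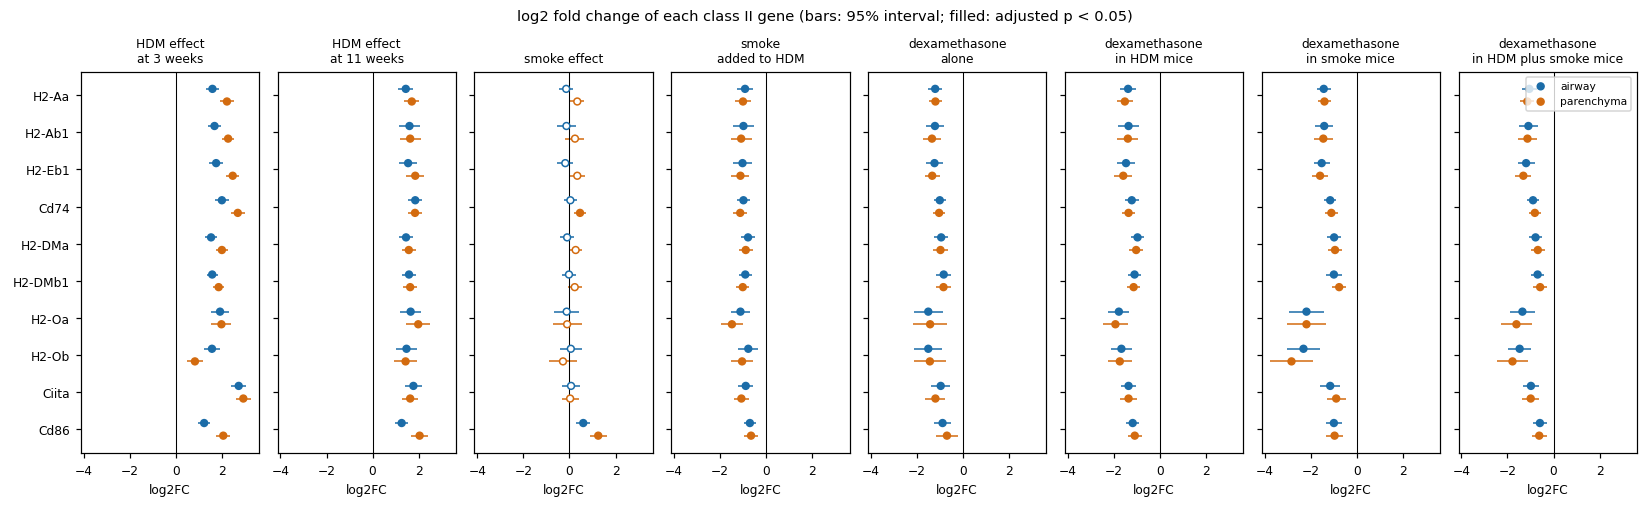
Log2FC of the 10 members with 95% intervals in each tissue, in 8 panels: HDM at 3 and at 11 weeks, smoke, smoke added to HDM, and DEX alone, in HDM mice, in smoke mice and in mice with both. Filled points passed at an adjusted p under 0.05. HDM moves the members to the right, and smoke added to HDM or DEX moves them to the left, while smoke alone leaves most near 0.

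Smoke without HDM was followed by little change in the members. In airway Cd86 was the single member that passed, from 6.51 to 22.2 CPM (median 11.7) in PBS.AIR to 11.8 to 25.3 (median 19.1) in PBS.CS, with overlap (log2FC 0.60 ± 0.16, adjusted p = 0.0037), where 7.66% of genes were higher. In parenchyma Cd86 went from 4.45 to 9.01 CPM (median 6.55) to 13.1 to 17.6 (median 16.5) without overlap, and was called up at 1.25 ± 0.19 (adjusted p = 2.9e-08). There 4.21% of genes were called up and 5.08% lay above without overlap. Cd74 was higher by 0.46 ± 0.14 in parenchyma (adjusted p = 0.0055), where 17.7% of genes were, with 1014 to 1338 CPM (median 1108) in PBS.CS against 610 to 1046 (median 836). The other 8 members did not pass in either tissue when no library was left out. Without the 27 libraries most like another group, H2-Aa passed as higher in parenchyma (log2FC 0.34, adjusted p = 0.043 by limma-voom). Over the settings tried, the members' median log2FC with smoke alone ranged from 0.24 to 0.27 in parenchyma and from -0.14 to -0.02 in airway. The 95% interval of the log2FC of Ciita was -0.30 to 0.45 in airway and -0.34 to 0.41 in parenchyma, and that of H2-Oa was -0.65 to 0.41 and -0.72 to 0.51.

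Macrophage markers moved with smoke in the same libraries. Of 10, 7 were higher in airway (median log2FC 0.76) and 9 in parenchyma (median 1.47), led by Msr1 (1.97 and 2.89) and Marco (1.87 and 2.87), both scavenger receptors, and Cd68 (1.31 and 2.04). Their summed level ran from 219 to 337 CPM in PBS.AIR airway and 344 to 708 in PBS.CS airway, and from 228 to 361 and 578 to 952 in parenchyma. The common leukocyte antigen Ptprc did not pass (0.20 and 0.02). The part of macrophage number in the Cd86 and Cd74 results was not tested, and in bulk tissue more cells of a type and more RNA per cell cannot be told apart, here and in every comparison.

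Smoke added to HDM went the other way. All 10 members were lower in HDM.CS than in HDM.AIR in each tissue, with a median log2FC of -0.92 (-1.12 to -0.71) in airway and -1.06 (-1.49 to -0.66) in parenchyma, against -0.01 over all genes in both. In airway 2 were called down, H2-Oa and H2-Eb1, where 1.97% of genes were; in parenchyma 8 were, where 3.46% of genes were. Many values lay near the limit of -1, so the counts of calls moved while the medians did not: without libraries X177 to X204 the count was 0 in airway and 3 in parenchyma. All 10 members passed at an adjusted p under 0.05 in both tissues, against 10.1% and 14.1% of genes.

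H2-Aa fell from 759 to 1653 CPM (median 900) in HDM.AIR airway to 453 to 631 (median 519) in HDM.CS airway. In parenchyma it fell from 781 to 1750 CPM (median 1033) to 450 to 669 (median 534), and no HDM.CS library reached an HDM.AIR library in either tissue (log2FC -0.92 ± 0.17, adjusted p = 2.7e-05, and -1.01 ± 0.17, adjusted p = 1.6e-06). Cd74 fell by 0.99 ± 0.15 and 1.13 ± 0.15 on the log2 scale, from 2080 to 4219 CPM (median 2502) to 1184 to 1604 (median 1259) in airway and from 1926 to 4396 (median 2687) to 1085 to 1690 (median 1285) in parenchyma, again apart. Ciita went from 49.9 to 92.6 CPM (median 61.3) to 25.3 to 44.4 (median 35.9) in airway and from 48.3 to 105.6 (median 63.2) to 25.2 to 35.99 (median 30.2) in parenchyma. Its groups did not overlap, and it fell by 0.89 ± 0.17 and 1.08 ± 0.17 (adjusted p = 2.8e-05 and 2.9e-07). H2-Oa showed the largest fall of the members in both tissues, -1.12 ± 0.21 and -1.49 ± 0.24, with medians of 12.3 and 7.02 CPM in airway (9.64 to 22.6 and 3.69 to 9.96) and 11.8 and 4.72 in parenchyma (6.56 to 27 and 2.14 to 6.29). Cd86 fell least in parenchyma, by 0.66 ± 0.15. H2-Ob fell by 0.78 ± 0.22 in airway (adjusted p = 0.0056 by limma-voom), which did not pass by edgeR (0.11) or DESeq2 (0.13). The groups stood apart for 5 members in airway and 8 in parenchyma, where 0.470% and 1.17% of all genes lay below without overlap.

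The HDM by smoke interaction, which asks whether smoke acted differently in HDM mice than in PBS mice, passed for 9 members in airway (median log2 difference -0.88, against 11.4% of genes lower) and 9 in parenchyma (median -1.34, against 18.7%). H2-Ob was the exception in both (-0.84 ± 0.33, adjusted p = 0.060, and -0.76 ± 0.38, 0.11), although it passed in airway with a filter at 10 CPM (adjusted p = 0.019), without the 10 libraries most like the other tissue (0.047) and without the 27 most like another group (0.0049). In airway 3 were called (Cd86 at -1.31 ± 0.21, Cd74 at -1.03 ± 0.21 and H2-Oa at -1.0 ± 0.34), where 3.50% of genes were, and in parenchyma 9, where 7.11% were. Cd86 had the largest interaction, -1.91 ± 0.24 in parenchyma (adjusted p = 4.4e-11), followed by Cd74 at -1.59 ± 0.21 (1.5e-10) and H2-Eb1 at -1.46 ± 0.27 (4.9e-06). Without libraries X177 to X204 the count that passed in airway fell to 5. Without the 27 libraries most like another group it was 6, and the classical chains H2-Aa (-0.57, adjusted p = 0.062), H2-Ab1 (-0.56, 0.20) and H2-Eb1 (-0.61, 0.085) and H2-DMa (-0.44, 0.12) did not pass. The airway result for H2-Oa passed neither by edgeR (adjusted p = 0.12) nor by DESeq2 (0.13).

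HDM with smoke still left most members above untreated controls. Against PBS.AIR, 9 were higher in airway (median log2FC 0.63; 25.2% of genes were) and 8 in parenchyma (median 0.64; 25.4% of genes). Cd86 in parenchyma was the one call, at 1.38 ± 0.19, where 8.67% of genes were called up. H2-Oa did not pass in either tissue (0.53 ± 0.25, adjusted p = 0.067 by limma-voom, and 0.49 ± 0.30, 0.17), nor did H2-Ob in parenchyma (0.38 ± 0.27, 0.25). The airway result for H2-Ob passed by limma-voom but not by edgeR (adjusted p = 0.10) or DESeq2 (0.13). Cd86 had the same median, 16.5 CPM, in PBS.CS and HDM.CS parenchyma. HDM.AIR libraries enter both the HDM and the added-smoke comparison, so the opposite signs of these are not separate observations.

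DEX in week 11 lowered all 10 members in every setting tested, with or without HDM or smoke, at an adjusted p under 0.05. The share of all genes lower at this threshold, airway and parenchyma, was 6.85% and 12.0% for DEX alone, 16.0% and 16.2% in HDM mice, 6.60% and 9.49% in smoke mice and 7.05% and 5.40% in mice with both. Given alone, its median log2FC was -1.11 in airway, with 6 members called down against 1.85% of genes, and -1.20 in parenchyma, with 7 called against 2.14%. In HDM mice the median was -1.36 in airway, with 9 called against 5.07% of genes, and -1.38 in parenchyma, with 10 called against 5.40%. In smoke mice it was -1.28 (7 called, against 2.29%) and -1.25 (6 called, against 2.39%). In mice with HDM and smoke it was -1.01 (5 called, against 1.93%) and -1.06 (5 called, against 1.92%). The median over all genes tested lay between -0.02 and 0.01 in these 8 comparisons. The result for Cd86 with DEX alone in parenchyma did not pass with a filter at 10 CPM (adjusted p = 0.096) or without X177 to X204 (0.054).

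Among the classical chains in HDM mice, H2-Eb1 fell from 529 to 1221 CPM (median 598) to 171.5 to 747 (median 230) in airway. In parenchyma it fell from 582 to 1209 CPM (median 704) to 149.2 to 692 (median 215). The high ends of the DEX groups were X11 and X12, and without them no DEX library reached an HDM.AIR library in either tissue. The log2FC was -1.47 ± 0.20 and -1.59 ± 0.20 (adjusted p = 4.6e-10 and 3.1e-11), and -1.66 and -1.75 without X11 and X12. As X11 and X12 were left out for their high values, part of this gap and of the larger falls is fixed by that choice. H2-Aa fell by 1.38 ± 0.17 and 1.52 ± 0.17, and H2-Ab1 by 1.36 ± 0.23 and 1.39 ± 0.23. Cd74 went from a median of 2502 to 1035 CPM in airway (776 to 2846 with DEX) and from 2687 to 1012 in parenchyma (727 to 2398 with DEX), with log2FC of -1.22 ± 0.15 and -1.36 ± 0.15. Ciita went from a median of 61.3 to 24.9 CPM in airway (14.4 to 86.96 with DEX) and from 63.2 to 23.5 in parenchyma (12.7 to 87.6 with DEX), with log2FC of -1.36 ± 0.17 and -1.36 ± 0.18. The value of 86.96 CPM was X11 and that of 87.6 was X12.

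The H2-DO chains fell most under DEX. In HDM mice H2-Oa fell by 1.78 ± 0.23 in airway and 1.93 ± 0.27 in parenchyma, and H2-Ob by 1.67 ± 0.24 and 1.74 ± 0.27, against 0.97 ± 0.15 and 1.03 ± 0.15 for H2-DMa and 1.10 ± 0.15 and 1.14 ± 0.15 for H2-DMb1. The falls of H2-DO were largest in smoke mice. H2-Ob went from 4.37 to 15.5 CPM (median 11.6) in PBS.CS parenchyma to 0.287 to 5.81 (median 1.02) in PBS.CS.DEX parenchyma. In airway it went from 9.38 to 29.9 CPM (median 16.5) to 0.678 to 13.7 (median 3.37). Both pairs of groups overlapped, and the log2FC was -2.83 ± 0.48 (adjusted p = 2.8e-06) and -2.31 ± 0.36 (3.8e-07). H2-Oa fell by 2.18 ± 0.44 and 2.18 ± 0.38 there. In mice with HDM and smoke, Cd86 fell least in airway, by 0.59 ± 0.16 (adjusted p = 0.0063 by limma-voom, 0.051 by DESeq2), and H2-DMb1 least in parenchyma, by 0.58 ± 0.15 (adjusted p = 0.0049), beside 0.62 ± 0.17 for Cd86.

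The summed level of the H2-DO chains over that of the H2-DM chains, each in CPM per kb, gives the same contrast as 1 value per library. Its median log2 was -2.73 (-3.03 to -2.01) in HDM.AIR parenchyma and -3.47 (-3.67 to -3.02) in HDM.AIR.DEX parenchyma. It was -3.14 (-4.10 to -2.60) in PBS.CS parenchyma and -5.00 (-6.49 to -3.71) in PBS.CS.DEX parenchyma. The groups of the first pair overlapped narrowly and those of the second more widely. In airway the medians were -2.04 and -2.91 for HDM.AIR without and with DEX, and -2.32 and -3.72 for PBS.CS, with wider ranges. Mean differences (DEX less no DEX) were -0.77 ± 0.12 (SE, n = 10 and 10) in HDM.AIR parenchyma, -1.66 ± 0.29 in PBS.CS parenchyma, -0.69 ± 0.20 in HDM.AIR airway and -1.28 ± 0.50 in PBS.CS airway, given as a description. For DEX alone the differences were -0.60 ± 0.32 in airway and -0.53 ± 0.25 in parenchyma. In mice with HDM and smoke they were -0.66 ± 0.28 and -1.05 ± 0.16. Without DEX, HDM at 3 weeks gave 0.21 ± 0.21 in airway and -0.41 ± 0.09 in parenchyma, and smoke alone gave 0.01 ± 0.29 and -0.44 ± 0.19.

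**Figure D4:**
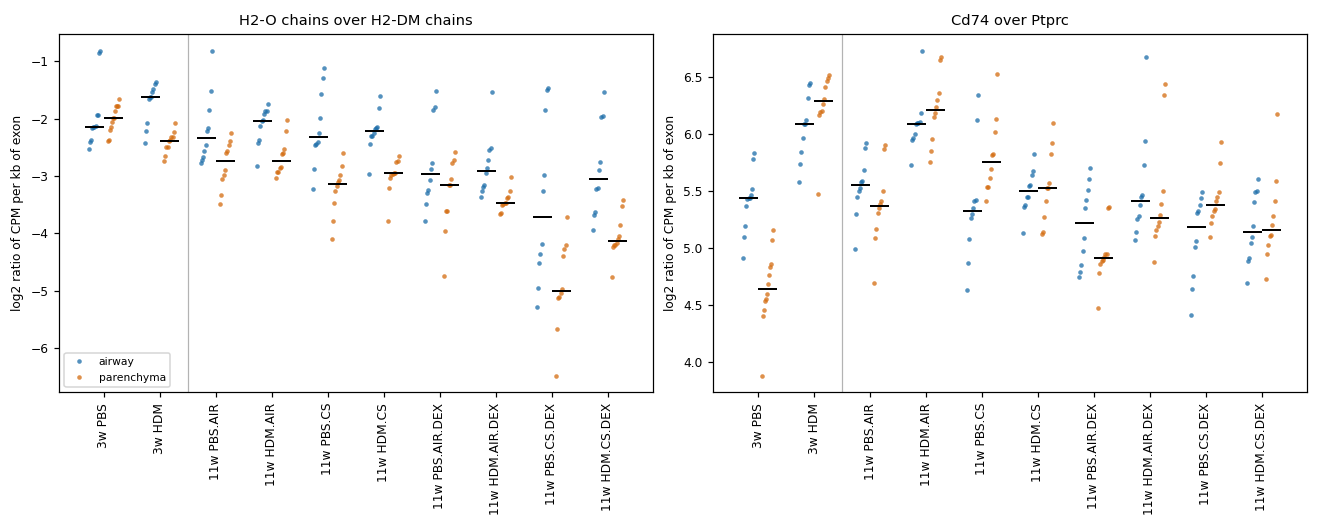
Log2 ratio of summed H2-DO to summed H2-DM levels, and of Cd74 to Ptprc, in CPM per kb, in every library of each group, with a line at the group median. The H2-DO to H2-DM ratio is lowest in PBS.CS.DEX parenchyma, and Cd74 over Ptprc is highest in the HDM groups without smoke or DEX.

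The effect of DEX was compared between PBS and HDM mice and between tissues. In the HDM by DEX interaction none of the 10 members passed in either tissue by limma-voom, edgeR or DESeq2, nor did any at an unadjusted p under 0.05, where 3.52% (airway) and 6.38% (parenchyma) of genes were lower. The 95% intervals still allow differences of some size, from -0.60 to 0.19 for Cd74 and from -1.05 to 0.52 for H2-Oa in airway. Between tissues in HDM mice again none of the members passed by these tools, adjusted or unadjusted, and no gene at all passed by limma-voom. The interval for H2-Aa was -0.32 to 0.61.

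DEX groups lay below their controls without overlap for 5 members in airway and 7 in parenchyma when DEX was given alone, where 0.378% and 2.27% of all genes did. In HDM mice this held for 2 members in airway (H2-Ob and Cd86; 2.16% of genes) and 1 in parenchyma (H2-Ob; 1.69%), but for 10 and 7 members without X11 and X12, where 3.16% and 2.47% of genes did. These libraries were left out because they were the highest of their groups in all members but H2-Ob, so part of that gain is fixed by their choice. It held for 4 and 5 members in smoke mice (0.329% and 1.06% of genes) and for 3 and 4 in mice with HDM and smoke (0.524% and 1.07%). H2-Aa and Cd74 were among them in each setting but HDM alone. Given alone in airway, DEX took Cd74 from 626 to 854 CPM (median 739) to 281 to 449 (median 378), well below (log2FC -1.01 ± 0.13, adjusted p = 1.7e-09).

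Ptprc moved with the members in the main comparisons. This gene, carried by all leukocytes, rose by 1.34 and 1.09 log2 units with HDM at 3 weeks and 1.29 and 1.01 at 11 weeks in airway and parenchyma, fell by 0.40 and 0.47 with smoke added to HDM, and fell by 0.67 and 0.59 with DEX in HDM mice. Per library, the median log2 ratio of Cd74 to Ptprc in CPM per kb was 5.55 (4.99 to 5.92) in PBS.AIR airway, 6.09 (5.72 to 6.73) in HDM.AIR airway, 5.50 (5.13 to 5.82) in HDM.CS airway and 5.41 (5.07 to 6.67) in HDM.AIR.DEX airway. In parenchyma the same medians were 5.37 (4.69 to 5.90), 6.21 (5.75 to 6.67), 5.53 (5.12 to 6.10) and 5.26 (4.87 to 6.44). The mean difference for HDM at 3 weeks in parenchyma was 1.60 ± 0.14 (n = 10 and 12).

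Marker lists of the presenting cells were read beside the members. With HDM at 11 weeks, 8 of 8 B cell markers were called up in airway and 7 in parenchyma (medians 1.54 and 1.71), 4 and 7 of 10 dendritic cell markers (0.54 and 1.33) and 8 and 7 of 10 macrophage markers (1.55 and 2.13). With DEX in HDM mice, 6 of 8 B cell markers were called down in each tissue (medians -1.23 and -1.30), led by Cr2 (-2.42 and -2.38), Ms4a1 (-1.74 in both) and Cd79a (-1.38 and -1.47). Of the dendritic cell markers 6 and 7 were called down (-1.15 and -1.29), led by Siglech of plasmacytoid cells (-2.04 and -2.94), Xcr1 of cross-presenting cells (-1.66 and -1.81) and Flt3 (-1.58 and -1.78). None of the 10 macrophage markers was called (medians -0.24 and -0.42) by limma-voom, although 1 and 6 were lower at an adjusted p under 0.05, Fcgr1 most (-1.0 in both). Smoke added to HDM gave medians of -0.73 and -1.01 for B cell, -0.55 and -0.63 for dendritic cell and -0.07 and -0.18 for macrophage markers.

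In summed level, B cell markers ran from 348 to 687 CPM in HDM.AIR airway and 121.6 to 341 in HDM.AIR.DEX airway, and from 283 to 502 and 79.2 to 263 in parenchyma. Macrophage markers ran from 738 to 1212 CPM and 721 to 1378 in airway, and from 845 to 1407 and 670 to 1222 in parenchyma. Every marker of these 3 lists reached 1 CPM in some library. The part of cell numbers in the falls of the members was not tested. T cell markers fell too, with 6 of 7 lower in airway and 7 of 7 in parenchyma under DEX in HDM mice (medians -0.70 and -0.79). Of 8 alveolar type II markers 7 and 6 were higher in the same comparison (medians 0.57 and 0.58). Of 7 thymocyte markers, 3 stayed under 1 CPM in every library and 3 could be tested in these fits. All 3 of these were lower in both tissues with DEX in HDM mice: Dntt, the terminal transferase of lymphocyte precursors (-3.16 and -3.49), Themis (-1.0 and -0.91) and Cd8b1 (-0.90 and -0.95). With HDM at 3 weeks Dntt (2.0 and 2.33) and Themis (1.29 and 1.06) were called up, and with smoke added to HDM Dntt was called down (-1.67 and -1.92). The part of these cells in the results for the members was not tested.

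**Figure D5:**
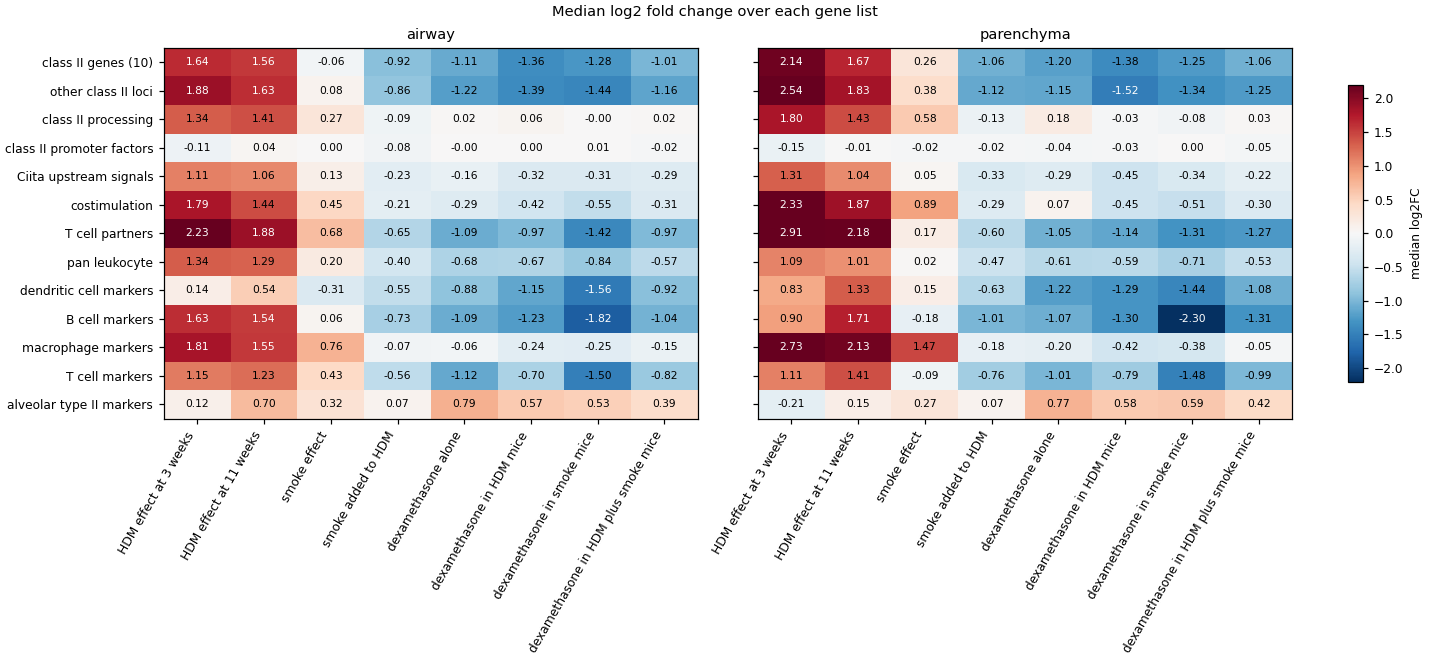
Median log2FC of the members and of each gene list (rows) in each comparison (columns). The medians of the members, the other class II loci and the B cell list are above 0 with HDM and below 0 with smoke added to HDM and with DEX, and that of the promoter factors lies near 0.

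The other genes of the pathway were read from lists. The 3 further class II loci tested went with the members: H2-Ea-ps, H2-DMb2 and H2-Eb2 rose by 1.33, 1.63 and 3.79 in airway and 1.68, 1.83 and 3.83 in parenchyma with HDM at 11 weeks, and fell by 1.39, 1.25 and 1.69, and 1.52, 1.36 and 1.90, with DEX in HDM mice. H2-Ea-ps is annotated as a pseudogene in the reference strain, whereas Balb/C mice carry a functional Ea gene. With smoke added to HDM all 3 were lower in both tissues (medians -0.86 and -1.12).

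The endosomal processing genes were higher with HDM, and their medians lay near 0 with DEX. With HDM at 11 weeks 8 of 12 genes were called up in each tissue (medians 1.41 and 1.43), led by the cathepsins Ctss, which trims the invariant chain (2.98 and 2.61), Ctsd (2.36 and 2.25) and Ctsb (1.76 and 2.11). With DEX in HDM mice their medians were 0.06 and -0.03: 4 were higher in each tissue and 3 and 5 were lower. Ctse fell in both (-1.23 and -1.31), as did March1, a ubiquitin ligase that removes class II from the surface (-0.77 and -0.68), while Ctsl was higher in airway (0.84 ± 0.14, adjusted p = 2.7e-07). Smoke alone raised Ctsd (1.25 and 1.83), a lysosomal protease, and 5 and 9 of the 12 passed as higher.

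Of the 7 promoter factors that form the CIITA platform (RFX, NF-Y and Creb1), none was called in any of these comparisons by limma-voom. The largest movements were of Nfya (0.74 and 0.75 with HDM at 3 weeks) and Rfx5 (0.74 and 0.65 with HDM at 3 weeks, and -0.43 and -0.38 with DEX in HDM mice), all at an adjusted p under 0.05. In the same comparisons Ciita itself moved by 2.73 and 2.93, and by -1.36 in both tissues. Signals upstream of Ciita moved further. With HDM at 3 weeks 9 and 11 of 16 were called up, led by Il10 (3.23 and 5.02), Ifng (2.77 and 2.91) and Irf4 (2.13 and 2.68). With DEX in HDM mice 2 and 3 were called down, among them Irf4 (-1.51 and -1.38) and Ifng (-1.36 and -1.34). With smoke added to HDM, Irf4 fell (-0.79 and -1.19) and 7 and 10 of the 16 were lower.

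Costimulatory genes beside Cd86 were not all called where it was. With HDM at 11 weeks 6 of the 8 tested were called up in each tissue, with Pdcd1lg2, an inhibitory ligand of PD-1, at 2.66 and 3.27 and Cd274, the other such ligand, at 2.12 and 1.91. With DEX in HDM mice Pdcd1lg2 fell by 1.48 and 1.64 and Cd83 by 0.72 and 0.58, and 1 and 2 of the 8 were called. Cd80, which shares its receptors with CD86, rose with smoke alone by 1.08 in airway and 1.83 in parenchyma. The T cell side, 7 genes for the receptors that meet class II, CD86 and their kin, was called up throughout with HDM at 11 weeks (medians 1.88 and 2.18). It was lower throughout with DEX in HDM mice (medians -0.97 and -1.14, with 2 and 7 called).

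Over the 20 group means the members were closely alike, which is given as a description, since the groups share tissue and exposures. The correlation of each member with the mean of the other members was 0.995 or more for H2-Aa, H2-Ab1 and H2-Eb1, 0.957 to 0.977 for H2-DMa, H2-DMb1, Cd74 and Ciita, 0.949 for H2-Oa, 0.906 for Cd86 and 0.875 for H2-Ob. H2-Oa and H2-Ob went with each other (r = 0.979) and with the mean of the B cell markers (r = 0.98 for both), T cell markers (0.96 and 0.95) and dendritic cell markers (0.93 for both). Their r with macrophage markers was 0.44 and 0.33. Cd74 had r = 0.96 with Ptprc, 0.88 with the T cell, 0.85 with the B cell, 0.79 with the dendritic cell and 0.78 with the macrophage markers. The classical chains had r of 0.92 to 0.93 with the B cell and 0.93 to 0.94 with the T cell markers, so high values were not particular to H2-DO. Outside the members, the genes most like their mean profile over the 20 groups were H2-DMb2 (r = 0.997), H2-Ea-ps (0.993), Irf8 (0.991), Sp110 (0.983), Def6 (0.982), Cd52 (0.981), Coro1a (0.980) and Map4k1 (0.980).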

How the data were processed

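RNA-seq libraries of airway and parenchyma were analysed in 20 groups. Per the labels, the authors used bcl2fastq 2.20.0.422, STAR 2.5.1b, RSEM 1.2.31 and kallisto 0.44.0 on mm10. They deposited 1 table of estimated counts per gene, not scaled for library size; whether RSEM or kallisto made it, and whether counting used strand, are not given in the sources used here. Fractional values made up 20.3% of those above 0, and every value was rounded first. Of the 43346 identifiers, 42462 matched GENCODE M21 without their version suffix; for the members the version differed, so annotated lengths may differ slightly from those counted.

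Differential expression was computed in R 4.3.3 with limma-voom (limma 3.58.1) after TMM normalization (edgeR 4.0.16). Each group had its own mean, and p-values were adjusted over all genes tested (Benjamini-Hochberg). A gene was kept if at least 9 libraries reached the CPM that 10 counts make in a library of median size. The groups of week 3 shared a fit of 17381 genes, those of week 11 one of 18250, and all libraries one of 18528 for the difference between weeks. A call needs an adjusted p under 0.05 together with a log2FC of 1 or more in size. Log2 levels used a prior count of 2, and CPM per kb the merged exon length in M21. The fits were also run on simulated data with known changes. These data held no libraries set apart like X11 and X12, so they do not bear on results that rest on such libraries.

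The labels do not say whether libraries of a group came from separate animals, and p-values measure the spread between these libraries. The least different of 931 pairs of libraries within a group had a chi-square of 8.09 per degree of freedom, so none was counted as a duplicate. Intervals cover this spread only.

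Alternatives tried were the quasi-likelihood test of edgeR, DESeq2 1.42.0 as a test, its size factors, a filter at 10 CPM, no filter, and all libraries in 1 fit. A further 6, of which 5 leave out libraries and 1 has neighbouring airway and parenchyma library numbers as a block (duplicateCorrelation, consensus correlation 0.13 at 3 and 0.35 at 11 weeks), were chosen after seeing the data. The members, the gene lists and the rule for genes named (all members, and per list and comparison at most 3 genes of largest log2FC among those at an adjusted p under 0.05) were chosen with earlier results of these data known. No set test was run.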

Additional observations from a re-analysis of the deposited data

Results flagged for a closer look

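Of 180 pairs of a member and a group of 10 libraries, 12 (6.67%) had a library whose log2 CPM lay apart from the other 9 by Dixon's test, and chance gives about 1 in 20. Library X11 (HDM.AIR.DEX airway) lay apart as the highest for 6 members, at 9.84 for H2-Aa, 9.38 for H2-Ab1, 9.54 for H2-Eb1, 7.03 for H2-DMa, 6.45 for H2-DMb1 and 11.47 for Cd74. The other libraries of its group ran from 8.15 to 8.82 for H2-Aa and from 9.60 to 10.54 for Cd74. Library X4 (3 week HDM parenchyma) was the lowest for H2-Eb1 at 9.56 and Cd74 at 10.99. X109 (HDM.AIR airway) was the highest for H2-DMb1 at 7.17, X99 (HDM.CS.DEX airway) for H2-DMb1 at 5.39 and X100 (HDM.CS.DEX parenchyma) for Cd86 at 4.06. X63 (3 week HDM airway) was the lowest for H2-Oa at 3.73.

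Of 90 tests of a difference between effects, 14 were called, all in the HDM by smoke interaction or the difference between weeks. Of all genes, 3.50% in airway and 7.11% in parenchyma were called down for the HDM by smoke interaction. For the difference between weeks 3.03% and 4.06% were. The HDM by smoke interaction in airway was -1.31 for Cd86, -1.0 for H2-Oa and -1.03 for Cd74. In parenchyma it was -1.12 for Ciita, -1.91 for Cd86, -1.38 for H2-Oa, -1.59 for Cd74, -1.35 for H2-Aa, -1.17 for H2-DMa, -1.46 for H2-Eb1, -1.34 for H2-Ab1 and -1.25 for H2-DMb1. The HDM effect at 11 weeks less that at 3 weeks was -1.02 for Ciita in airway and -1.43 in parenchyma. All are log2 differences from the limma-voom fits.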

How the results depend on the processing

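Over 12 alternatives, 3403 of 3440 values of single members kept their direction and their side of the threshold, 25 no longer passed, 12 newly passed and none reversed. The count of members called in airway for smoke added to HDM was 2, and 4 by edgeR and by DESeq2, 1 without the 10 libraries most like the other tissue, 1 without the 27 most like another group and 0 without X177 to X204. In parenchyma it went from 8 to 3 without X177 to X204. For the HDM by smoke interaction in airway, 3 were called, 1 without the 10 libraries, and 5 in place of 9 passed without X177 to X204. PBS.AIR airway against PBS.AIR parenchyma gave 0 calls, and 1 by DESeq2. The HDM effect at 11 weeks less that at 3 weeks in airway gave 1 call, and 0 without the 10, the 27, or X177 to X204. These exclusions take away libraries as well as what sets them apart, and the cause was not tested. The members' median log2FC ranged from -0.95 to -0.83 and from -1.08 to -0.98 for smoke added to HDM in airway and parenchyma, and from -1.53 to -1.23 and -1.56 to -1.27 for DEX in HDM mice. No setting moved the median of all genes by more than 0.11. DESeq2 and the fit of all libraries were not run as alternatives for the difference between weeks. The labels give no replicate numbers that groups share. With neighbouring library numbers of the 2 tissues as a replicate block, chosen after seeing the data, the members that passed between PBS.AIR airway and parenchyma went from 1 to 2, with H2-Oa at 0.53 (adjusted p = 0.034), and no other result for a member changed side. Their deviations from the group means correlated at a median of 0.26 (-0.19 to 0.61), a hint from the data that they may share a mouse. H2-Oa and H2-Ob, near 1 CPM in some DEX groups, are the members whose precision depth limits most.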
